A study of Homo sapiens with 12 samples.

Results

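The 10 genes that encode secreted growth factors described here are LIF, OSM and IL6, HBEGF, AREG, EREG and TGFA, CSF1, VEGFA, and GDF15. They are soluble factors counted among the senescence secretome, and they were chosen as 10 of the 59251 genes of the count table with their values in the 4 treatment groups already known. RNA-Seq was performed on HL60 cells, an established human myeloid leukemia line, with 3 libraries per group and 12 in all. Beside non-treated cells, 3 groups were kept for 48 h in ATRA (all-trans retinoic acid, 1 µM), in palbociclib, which inhibits the kinases CDK4 and CDK6 (named CDK4/6i, 1 µM), or in both at the same doses (CDK4/6i+ATRA). All cells were cultured in the same serum-containing medium and the labels name no genetic change. The data cover 1 cell line at 1 time point. The labels call the libraries biological replicates, and the study describes its gene set analysis as drawn from independent experiments. The errors given here measure the spread between these libraries.

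The factors act through a few receptor systems. LIF, OSM and IL6 bind receptors that share the subunit gp130, encoded by IL6ST, and signal through JAK kinases and STAT3. HBEGF, AREG, EREG and TGFA are made as membrane-bound precursors that proteases such as ADAM17 cut to release ligands of the ERBB receptors. CSF1 supports monocytes and macrophages through CSF1R, VEGFA acts on endothelial cells through FLT1 and KDR with NRP1 as a co-receptor, and GDF15 is a stress-induced relative of TGF-beta whose receptor GFRAL, with its partner RET, is known from the brainstem.

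Promoter sequences were matched for 6 of the 10 genes (GDF15, HBEGF, AREG, EREG, IL6 and TGFA) in RefSeq promoters of the build GRCh38.p14. The 250 bases before the start site are shown for GDF15 and HBEGF, which were both highest with CDK4/6i+ATRA, and for AREG, which was lowest with ATRA. They read 5′ to 3′ on the gene's strand, and capitals mark matches to the motifs searched. The GDF15 stretch is chr19:18385908-18386157 (plus strand), that of HBEGF is chr5:140346604-140346853 (minus strand) and that of AREG is chr4:74444886-74445135 (plus strand).
GDF15: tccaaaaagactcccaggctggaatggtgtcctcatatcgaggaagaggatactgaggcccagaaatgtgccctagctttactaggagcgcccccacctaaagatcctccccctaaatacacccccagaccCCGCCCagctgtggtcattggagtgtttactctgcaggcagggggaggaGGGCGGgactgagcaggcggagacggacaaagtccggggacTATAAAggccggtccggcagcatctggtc
HBEGF: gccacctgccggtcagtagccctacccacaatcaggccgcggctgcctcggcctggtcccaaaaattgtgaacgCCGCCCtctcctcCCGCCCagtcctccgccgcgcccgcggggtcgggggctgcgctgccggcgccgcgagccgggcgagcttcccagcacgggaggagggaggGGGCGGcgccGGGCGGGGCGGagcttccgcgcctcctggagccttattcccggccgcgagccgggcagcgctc
AREG: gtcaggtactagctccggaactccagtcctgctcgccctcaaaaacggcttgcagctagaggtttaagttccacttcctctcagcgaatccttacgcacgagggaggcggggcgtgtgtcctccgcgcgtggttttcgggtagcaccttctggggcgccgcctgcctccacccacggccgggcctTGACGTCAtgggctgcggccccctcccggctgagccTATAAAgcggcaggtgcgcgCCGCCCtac

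On either strand, overlapping matches included, the stretches were searched for 9 motifs. The GC box was searched as GGGCGG, and the TATA box as TATAAA. The AP-1 site was read as TGANTCA, the cyclic AMP response element as TGACGTCA and the C/EBP-ATF response element as TGATGNAA. The E-box was read as CACGTG and the STAT site as TTCNNNGAA. The core of retinoic acid receptor sites was read as AGGTCA, and an NF-kappa-B site was also searched. GDF15 held 2 GC boxes and, 29 bases before its start, a TATA box. HBEGF held 5 GC boxes, of which 2 share a base, and no other motif searched. AREG held 1 cyclic AMP response element 65 bases before its start, 1 TATA box at 29 bases and 1 GC box at 9 bases. Over all 34941 promoters of this length, 42.5% held a GC box, 10.8% a TATA box and 1.63% a cyclic AMP response element. The AP-1 site (6.59% of promoters), the C/EBP-ATF element (3.15%), the E-box (6.32%) and the STAT site (6.56%) were in none of the 6 genes' stretches, the AGGTCA core (12.1%) was in EREG, and the NF-kappa-B site (1.73%) was in IL6. TGFA held 3 GC boxes in 1 of its 2 entries. A match is a run of letters and was not tested for binding.

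Total counts per library ranged from 12230923 to 18679544 and were lowest with CDK4/6i+ATRA (12230923 to 14415276). Levels are given as raw counts or as CPM, which scales counts to a common library total after TMM normalization, and 3 counts in a library equal 0.155 to 0.275 CPM. Of 8 myeloid marker genes, 5 had at least 10 counts in a library of every group, and these moved in both directions. Between non-treated and CDK4/6i+ATRA cells (SD, n = 3), MPO, encoding myeloperoxidase, fell from 6510 ± 167 to 27.9 ± 5.15 CPM and CEBPA from 377 ± 9.33 to 76.3 ± 0.732 CPM. SPI1 rose from 301 ± 3.02 to 854 ± 15.5 CPM and CSF3R from 38.8 ± 2.14 to 116 ± 10.1 CPM, and CD33 was at 93.8 ± 2.50 and 99.7 ± 5.23 CPM. AZU1, ELANE and PRTN3, the other myeloid markers, were listed at 0 in all libraries, and each lies on 2 sequences of the genome in the table. ZFP36, an expressed gene in most cells, was at 0 although on 1 sequence, so a 0 in this table was not read as absence of a transcript. No epithelial or fibroblast marker reached 10 counts in any library, and their summed levels stayed at or below 1.01 CPM. Of the 5 T cell markers only CD3E reached 10 counts, with 6 to 59 per library, and of the 5 B cell markers CD79A (134 to 457) and, with ATRA, CD22 (up to 15) did. CD79A had means of 16.7, 23.6, 23.1 and 14.2 CPM in non-treated, ATRA, CDK4/6i and CDK4/6i+ATRA cells. CD3E had 2.07, 2.31, 2.99 and 0.812 CPM in the same order, whereas the defining markers CD3G and MS4A1 held at most 2 counts and none. In bulk RNA, fewer cells that express a gene and less RNA per cell cannot be told apart. These markers and the growth factor genes both moved with treatment, and whether the makeup of the cultures had a part in the results was not tested.

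LIF, a cytokine that signals through LIFR and IL6ST and also acts on myeloid cells, lies on chromosome 22, positions 30240453 to 30246759 of hg38 (minus strand). Its counts were 2, 2 and 1 without treatment, 188, 190 and 154 with ATRA, 0, 3 and 0 under CDK4/6i, and 1777, 1790 and 1859 under CDK4/6i+ATRA. Every library with ATRA was above every library without it, and the CDK4/6i+ATRA libraries stood apart from those with ATRA alone. The mean level was 10.4 ± 1.65 CPM (SD, n = 3) with ATRA and 159 ± 4.69 CPM with CDK4/6i+ATRA, 15.3-fold higher (log2 fold change 3.94, 95% interval 3.78 to 4.09). Against non-treated cells, whose libraries all held 3 counts or fewer, the count ratio was 104 with ATRA (exact 95% counting interval 44.3 to 322) and 1596 with CDK4/6i+ATRA (684 to 4918). Such intervals cover counting error only, since reads are not independent molecules. The antisense genes LIF-AS1 and LIF-AS2, which overlap LIF, had 2 and 1 counts over all libraries.

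GDF15 was read in cells that received ATRA and was at or near 0 elsewhere. It lies on chromosome 19, positions 18386158 to 18389176 (plus strand). No read was counted in the 3 non-treated libraries, and the CDK4/6i libraries held 0, 1 and 0 counts. With ATRA there were 119, 83 and 80 counts, and with CDK4/6i+ATRA 1985, 2076 and 2110. The groups with ATRA did not overlap with each other or with those without it. The mean rose from 5.52 ± 1.57 CPM (SD, n = 3) with ATRA to 180.3 ± 5.49 CPM with CDK4/6i+ATRA, a 32.9-fold difference (log2 fold change 5.04, 95% interval 4.87 to 5.21). With 3 counts assumed over the non-treated group, the ratio to it would be 91.9 with ATRA and 3025 with CDK4/6i+ATRA. The exact 95% counting interval of the ratio began at 74.3 with ATRA and at 2460 with CDK4/6i+ATRA, and had no upper end.

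**Figure D1:**
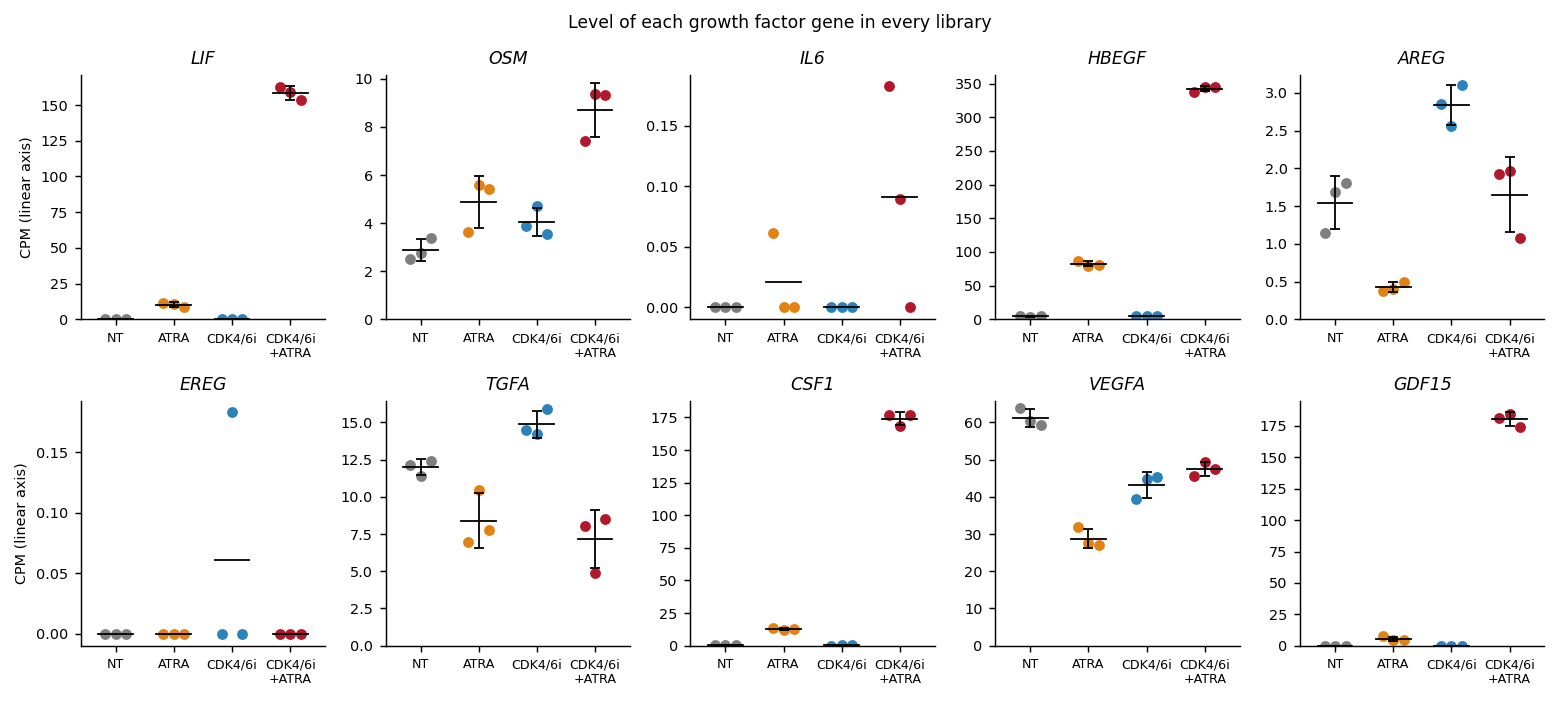
CPM of each of the 10 genes (linear vertical axes, scaled separately) in the 3 libraries of each group (points), with the mean as a line and the SD as error bars; no SD is drawn for IL6 and EREG, which held 3 counts or fewer per library. LIF, CSF1, HBEGF and GDF15 had their highest levels with CDK4/6i+ATRA, at means of 159, 174, 342 and 180.3 CPM, whereas VEGFA was highest in non-treated cells and AREG and TGFA with CDK4/6i alone.

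OSM, a cytokine of activated myeloid cells, lies beside LIF on chromosome 22 (positions 30262829 to 30266851, minus strand), with 16069 bases between the genes. It had 42, 44 and 60 counts in non-treated cells, 59, 96 and 98 with ATRA, 75, 77 and 61 under CDK4/6i and 81, 105 and 113 under CDK4/6i+ATRA. Its level was thus present in all groups and moved far less than that of LIF. In CPM, the means were 2.88 ± 0.441, 4.88 ± 1.08, 4.05 ± 0.585 and 8.70 ± 1.11 (SD, n = 3), and the lowest CDK4/6i+ATRA library lay above the highest library of every other group. OSM was 3.01-fold higher with CDK4/6i+ATRA than in non-treated cells (log2 fold change 1.59, 95% interval 1.21 to 1.96) and 1.78-fold higher than with ATRA alone. The ATRA and CDK4/6i groups overlapped.

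IL6, the inflammatory cytokine of the gp130 family (chromosome 7, positions 22727200 to 22731998, plus strand), held 2 counts or fewer in every library. It had 1 count in a single ATRA library and 2 and 1 counts in 2 of the CDK4/6i+ATRA libraries, and the other 9 libraries held none. No fold is given at these counts.

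The nearest tested genes beside the pair of LIF and OSM were MTMR3, a lipid phosphatase gene 209584 bases away, and CASTOR1, an arginine sensor gene 18265 bases away. MTMR3 rose with ATRA (log2 fold change 0.94, SE 0.0602) and with CDK4/6i+ATRA (1.49, SE 0.0603, edgeR quasi-likelihood, Benjamini-Hochberg adjusted p = 9.89e-28). CASTOR1 had 2 to 3 counts in non-treated libraries and 9 to 10 with CDK4/6i+ATRA. The level of CASTOR1 with CDK4/6i+ATRA was not distinguished from that with ATRA alone (log2 difference 0.34, SE 0.44, edgeR quasi-likelihood, Benjamini-Hochberg adjusted p = 0.498).

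Per length, HBEGF had the highest level among the ERBB ligands with ATRA and with CDK4/6i+ATRA. HBEGF, which can act from the membrane or after shedding, lies on chromosome 5, positions 140332843 to 140346603 (minus strand). It had 86, 63 and 98 counts in non-treated cells and 91, 88 and 79 with CDK4/6i, and these groups overlapped. With ATRA the counts were 1408, 1372 and 1462, and with CDK4/6i+ATRA 3691, 3866 and 4179. HBEGF was 16.8-fold higher with ATRA than in non-treated cells (log2 fold change 4.07, 95% interval 3.92 to 4.22), and CDK4/6i alone left it at a fold of 0.998 (log2 interval -0.26 to 0.26). With CDK4/6i+ATRA it was 69.8-fold higher than in non-treated cells and 4.16-fold higher than with ATRA (log2 fold change 2.06, 95% interval 1.97 to 2.14). Of the 4 ERBB ligands, HBEGF alone was higher in both groups with ATRA than in non-treated cells.

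AREG, an EGFR ligand known from tissue repair (chromosome 4, positions 74445136 to 74455005, plus strand), moved in another order. Its counts were 19, 27 and 32 in non-treated cells, 6, 7 and 9 with ATRA, 55, 42 and 53 under CDK4/6i, and 21, 22 and 13 under CDK4/6i+ATRA. All ATRA libraries were below and all CDK4/6i libraries above the non-treated ones, and the CDK4/6i+ATRA group overlapped with non-treated cells. The fold change was 0.28 after ATRA (log2 -1.84, 95% interval -2.59 to -1.09), 1.83 after CDK4/6i (log2 0.87, interval 0.33 to 1.41) and 1.06 after CDK4/6i+ATRA (log2 0.08, interval -0.55 to 0.72). These values rest on few counts, since the group means ranged from 0.425 to 2.84 CPM.

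TGFA (chromosome 2, positions 70447284 to 70553826, minus strand), another EGFR ligand, had 202, 182 and 221 counts in non-treated cells, 113, 180 and 141 with ATRA, 280, 233 and 272 under CDK4/6i and 88, 55 and 103 under CDK4/6i+ATRA. In CPM it was lower in both groups with ATRA and higher with CDK4/6i than in any non-treated library. The fold against non-treated cells was 0.702 with ATRA, 1.24 under CDK4/6i and 0.598 under CDK4/6i+ATRA, and the ATRA and CDK4/6i+ATRA groups overlapped. EREG, encoded on chromosome 4 beside AREG (positions 74365145 to 74388749, with 56386 bases between the genes), held 3 counts in 1 CDK4/6i library and none in the other 11. The nearest tested genes beside the pair of AREG and EREG were MTHFD2L, a mitochondrial folate enzyme gene, which was lower with CDK4/6i+ATRA than in non-treated cells (log2 fold change -0.62, SE 0.11, edgeR quasi-likelihood, Benjamini-Hochberg adjusted p = 2.83e-06), and RCHY1, a ubiquitin ligase gene 1024027 bases away, which did not pass the threshold there (0.13, SE 0.064, adjusted p = 0.0646). The call of RCHY1 changed with the setting, since it was higher with DESeq2 size factors (edgeR quasi-likelihood, adjusted p = 0.0363), with at least 10 counts in each library (0.0194) and without CDK4/6i+ATRA replicate 1 (0.0102), and lower with scaling by library size alone (-0.14, 0.0411).

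CSF1, the growth factor of macrophages, lies on chromosome 1, positions 109910506 to 109930992 (plus strand). It had 7, 3 and 8 counts in non-treated cells, 215, 212 and 233 with ATRA, 1, 13 and 6 under CDK4/6i and 1930, 1893 and 2142 under CDK4/6i+ATRA. As for LIF, the ATRA libraries were far above those without ATRA and the CDK4/6i+ATRA libraries were above all others. The mean was 12.8 ± 0.446 CPM (SD, n = 3) with ATRA and 174 ± 4.74 CPM with CDK4/6i+ATRA, 13.6-fold higher (log2 fold change 3.76, 95% interval 3.61 to 3.91). Against non-treated cells CSF1 was 35.1-fold higher with ATRA and 477-fold higher with CDK4/6i+ATRA, and with CDK4/6i alone the libraries overlapped with the non-treated ones.

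VEGFA, the growth factor of blood vessels (chromosome 6, positions 43770209 to 43786487, plus strand), had its highest level in non-treated cells. The counts were 1065, 963 and 1055 in non-treated cells, 517, 474 and 489 with ATRA, 759, 735 and 777 under CDK4/6i and 497, 554 and 576 under CDK4/6i+ATRA. All libraries of the 3 treated groups lay below the non-treated libraries in CPM. The mean fell from 61.2 ± 2.42 CPM (SD, n = 3) to 28.8 ± 2.63 with ATRA and 43.2 ± 3.37 with CDK4/6i, and was 47.5 ± 1.91 with CDK4/6i+ATRA. Relative to ATRA alone, VEGFA was thus 1.65-fold higher under CDK4/6i+ATRA (log2 fold change 0.72, 95% interval 0.58 to 0.86). The difference between CDK4/6i+ATRA and CDK4/6i was 0.14 on the log2 scale and not past the threshold. It was past it under 6 of 19 alternatives, 3 of which left out a single library, and became -0.14 with scaling by library size alone, so no direction is read from it.

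**Figure D2:**
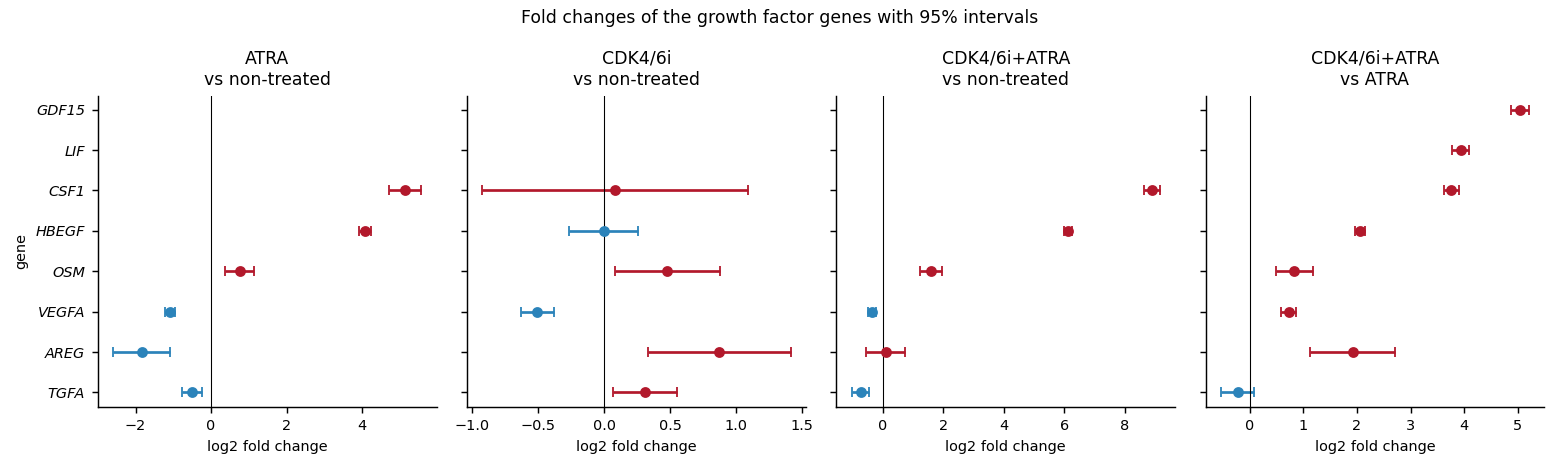
Log2 fold changes (horizontal axes, scaled separately) with 95% intervals for the 8 genes that passed the filter on low counts, in 4 comparisons; GDF15 and LIF are left out where a group held 3 counts or fewer in every library. Against ATRA alone, CDK4/6i+ATRA was higher for 7 of the 8 genes, from 0.72 for VEGFA to 5.04 for GDF15, and the interval of TGFA spanned 0. Of all 13318 tested genes, 36.9% were higher and 32.8% lower there, and the genes shown were chosen with these values known.

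Since levels of different genes can be compared only per length of transcript, counts were also expressed per length of exon and library total (RPKM). In non-treated cells VEGFA came first with 16.1 ± 0.636 RPKM (SD, n = 3), followed by TGFA with 2.74 ± 0.121, HBEGF with 2.07 ± 0.349, AREG with 1.25 ± 0.287 and OSM with 0.894 ± 0.137 RPKM, of which AREG and OSM overlapped. LIF and CSF1 were below 0.1 RPKM there. The order was different with CDK4/6i+ATRA, where GDF15 (150.2 ± 4.58 RPKM) and HBEGF (145 ± 1.64 RPKM) led with overlapping libraries. CSF1 (36.2 ± 0.986 RPKM) and LIF (36.2 ± 1.07 RPKM) followed, also overlapping, and VEGFA came next with 12.5 ± 0.504 RPKM. With ATRA alone, HBEGF led with 35.0 ± 1.57 RPKM, above VEGFA (7.59 ± 0.694) and GDF15 (4.60 ± 1.31), whereas CSF1, LIF, TGFA and OSM between 2.67 and 1.51 RPKM each overlapped with the next.

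The 8 genes that passed the filter on low counts (all but IL6 and EREG) were set beside the share of all 13318 tested genes past an adjusted p of 0.05 in edgeR's quasi-likelihood test. They were selected on values of these same groups, and nothing is read from their counts. With ATRA, 5 were higher and 3 lower than in non-treated cells, beside 32.1% and 35.5% of all tested genes. With CDK4/6i the counts were 3 higher and 1 lower, beside 28.3% and 27.9%, and these 4 became 2 without non-treated replicate 2, where OSM and TGFA were no longer past the threshold. With CDK4/6i+ATRA there were 5 higher and 2 lower, beside 41% and 40.7%. Between CDK4/6i+ATRA and CDK4/6i alone 5 were higher and 2 lower (all tested genes, 39.1% and 39.5%), and between CDK4/6i+ATRA and ATRA alone 7 were higher and none lower (36.9% and 32.8%). These comparisons share samples, so they do not count as separate evidence.

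To compare the effect of both drugs with those of each drug alone, the level with CDK4/6i+ATRA was set beside the sum of the single-drug changes in CPM. This additive level was 5.55 CPM for GDF15, 10.3 for LIF, 12.9 for CSF1, 82.4 for HBEGF and 10.8 for VEGFA. The measured levels exceeded it by a factor of 32.5 for GDF15, 15.3 for LIF, 13.5 for CSF1, 4.15 for HBEGF and 4.39 for VEGFA. VEGFA was lower with each drug alone than in non-treated cells (61.2 CPM) and remained below that level with both drugs (47.5 CPM). Its excess is therefore a fall smaller than the single-drug falls add up to, not a rise. In CPM the excess was 259.9 (SE 3.13) for HBEGF, 175 (SE 3.30) for GDF15, 161 (SE 2.76) for CSF1, 148 (SE 2.87) for LIF and 36.7 (SE 3.05) for VEGFA. OSM lay above the additive level by 2.65 CPM (SE 0.99), TGFA below it by 4.14 CPM (SE 1.67), and AREG did not differ from it beyond its error (-0.0659 CPM, SE 0.388).

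On the log2 scale, where additive effects are fold changes that multiply, the excess was 3.68 for CSF1 (95% interval 2.51 to 4.85), 2.06 for HBEGF (1.78 to 2.34), 1.23 for VEGFA (1.04 to 1.41) and -0.54 for TGFA (-0.93 to -0.15). The excess of CSF1 rested in size on the sparse CDK4/6i libraries, which held 1, 13 and 6 counts, and was 4.62 without CDK4/6i replicate 2 and 3.11 without CDK4/6i replicate 1. The interval of OSM spanned 0 (0.35, -0.18 to 0.88), and that of AREG did not (1.05, 0.08 to 2.02) although AREG was not past the threshold. No value is given for LIF and GDF15, for which 2 groups held 3 counts or fewer per library. Of the 8 genes, the interaction was past the threshold above 0 for 4 (LIF included) and below 0 for 1, beside 24.5% and 27% of all tested genes, and the same selection on known values holds for these counts. With scaling by library size alone in place of TMM, the median over all genes moved from -0.02 to -0.34 for the interaction and from 0.04 to -0.26 for CDK4/6i+ATRA against ATRA. The share of higher among all called genes then moved from 47.5% to 18.5% and from 53% to 31.6%, and from 49.8% to 36.7% for CDK4/6i+ATRA against CDK4/6i. Relative to no treatment, the median for CDK4/6i+ATRA moved from 0.02 to -0.25 and that share from 50.2% to 40.5%. The positive excess of CSF1, HBEGF and VEGFA remained, although VEGFA stayed lower with CDK4/6i+ATRA than in non-treated cells. HBEGF was then 1.75 higher (log2) with CDK4/6i+ATRA than with ATRA, GDF15 4.73, LIF 3.63 and CSF1 3.46.

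**Figure D3:**
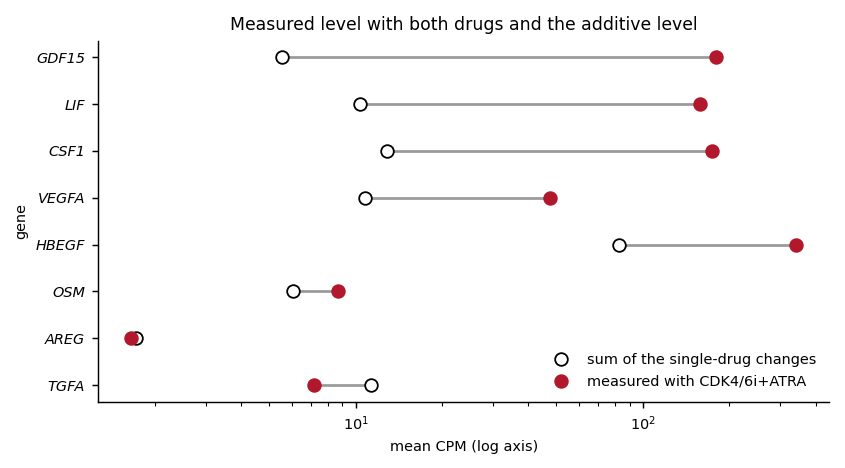
Mean CPM with CDK4/6i+ATRA (filled points, log axis) and the level that the single-drug changes add up to (open points) for 8 genes. The filled point lies right of the open one for GDF15, LIF, CSF1, VEGFA, HBEGF and OSM, by factors of 32.5 for GDF15 to 1.44 for OSM, at about the same level for AREG and left of it for TGFA. For VEGFA both points lie below the mean of non-treated cells (61.2 CPM).

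The genes whose pattern was most like that of LIF were searched among 9299 tested genes of at least 5 CPM on average, by Pearson correlation of log2 CPM over the 12 libraries. They were CHST15, TBL2, PLXNA1, PHACTR2 and EFHD2, all with r of 0.998. For GDF15 they were FAM20C and ADGRE3 (r = 0.9995 each), FOSL2 (0.999), BHLHE40 (0.998) and RAPGEF1 (0.998). The libraries fall into 4 groups, so these values mostly describe how the group levels are spaced relative to each other, and they were not tested. The correlation takes no account of the size of a change or of the level without treatment. EFHD2 went from 234 CPM in non-treated cells to 1161 with CDK4/6i+ATRA, TBL2 from 53.0 to 334 and RAPGEF1 from 163 to 689, whereas LIF and GDF15 started near 0. FAM20C, which encodes a kinase of secreted proteins, shared with GDF15 a level near 0 without ATRA, with 2.83 CPM with ATRA and 51.4 CPM with CDK4/6i+ATRA. CHST15, a sulfotransferase gene, had 4.58 and 31.2 CPM.

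The partners of these factors were taken from 13 hand-made lists of 151 genes, none of which is among the 10, and 81 of the 151 passed the filter. The lists were compiled with earlier results of these data known. With CDK4/6i+ATRA, 48 of the 81 were higher and 26 lower than in non-treated cells (median log2 fold change 0.96, beside 0.02 over all tested genes, of which 41% were higher and 40.7% lower). Counts for single lists against non-treated cells, given below, stand beside the same 41% and 40.7%. Against ATRA alone 46 were higher and 24 lower (median 0.37, beside 0.04), where 36.9% of all tested genes were higher and 32.8% lower.

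The receptors of the gp130 cytokines differed widely in level. IL6R, the specific receptor of IL6, had 2184 to 4715 counts per library, and with CDK4/6i+ATRA it stood at 47.5 RPKM beside 1.47 RPKM for IL6ST. IL6ST, the subunit that all 3 cytokines need, had 40 to 61 counts in non-treated cells, 85 to 105 with ATRA, 42 to 63 under CDK4/6i and 144 to 192 under CDK4/6i+ATRA. IL6ST was 4.99-fold higher with CDK4/6i+ATRA than in non-treated cells (log2 fold change 2.32, SE 0.17, edgeR quasi-likelihood, Benjamini-Hochberg adjusted p = 1.31e-17). LIFR, the second subunit for LIF, was listed at 0 in all 12 libraries, and OSMR, that of OSM, held 1 to 5 counts in 7 libraries and none in the other 5.

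Over the list of gp130 cytokine receptors and transducers, which includes IL6ST and IL6R, 8 of the 9 tested genes were higher with CDK4/6i+ATRA than in non-treated cells and 1 was lower, with a median log2 fold change of 1.12. Of all tested genes, 41% were higher and 40.7% lower in this comparison. JAK2 and TYK2, kinases that bind the receptors, rose by a log2 fold change of 2.49 (SE 0.067) and 1.61 (SE 0.043), and the lower gene was the phosphatase gene PTPN11 (-0.42), named after its value was seen. Against ATRA alone JAK2 was 0.29 higher, which turned to -0.016 with scaling by library size alone. Of the 8 tested response genes of gp130 and STAT3, 7 were higher and 1 was lower with CDK4/6i+ATRA (median 3.03), beside the same shares. Whether gp130 signalling was active was not tested. SOCS3, the feedback inhibitor of gp130, had 0 to 3 counts in non-treated libraries, 31 to 56 with ATRA, 2 to 5 under CDK4/6i and 71 to 85 under CDK4/6i+ATRA, a count ratio of 67.1 to non-treated cells (exact 95% counting interval 28.3 to 209). BCL3, a nuclear co-regulator of NF-kappa-B, was 61.8-fold higher than in non-treated cells (log2 5.95, SE 0.10) and 6.37-fold higher than with ATRA. PIM1, a survival kinase gene, rose to 106 ± 0.771 CPM (SD, n = 3) with CDK4/6i+ATRA from 5.03 ± 0.178 in non-treated cells but fell to 0.638 ± 0.128 CPM with CDK4/6i alone, and its interaction was 4.04 on the log2 scale (SE 0.20, edgeR quasi-likelihood, Benjamini-Hochberg adjusted p = 8.65e-23). The gene that was lower, named after its value was seen, was CISH, a feedback inhibitor of STAT5 (log2 fold change -4.14). Of 8 other gp130 ligands only CLCF1 (named after its values were seen) passed the filter, and it was not past the threshold in this comparison (log2 fold change -0.13, edgeR quasi-likelihood, Benjamini-Hochberg adjusted p = 0.798).

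**Figure D4:**
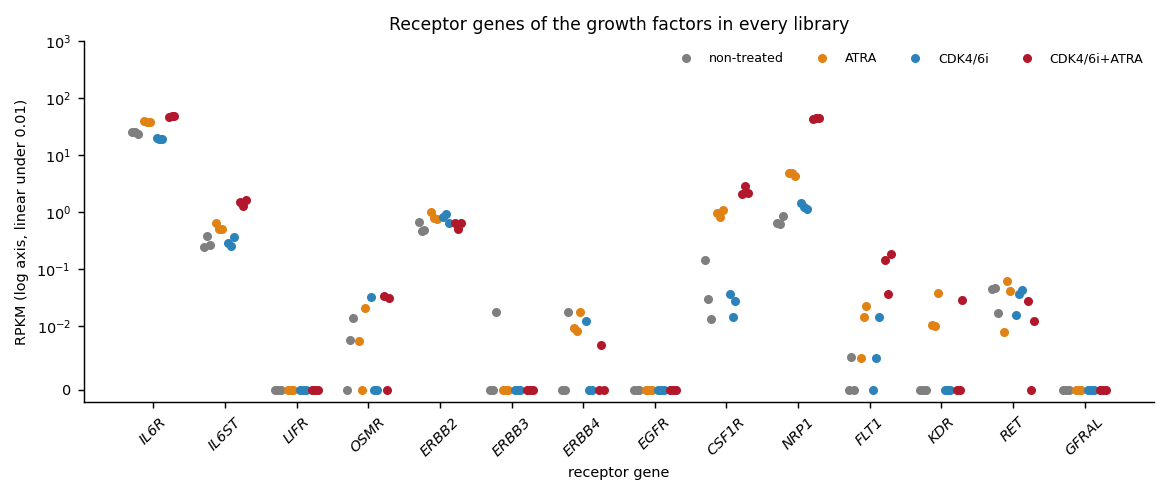
RPKM of 14 receptor genes in each library (points, coloured by group), on a log axis that is linear below 0.01. IL6R and NRP1 reached the highest levels, IL6ST, CSF1R and NRP1 were highest with CDK4/6i+ATRA, and LIFR, EGFR and GFRAL were listed at 0 in all 12 libraries.

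For the ERBB ligands, EGFR was listed at 0 in all libraries, ERBB3 held at most 2 counts and ERBB4 at most 4. ERBB2, a co-receptor that binds no ligand itself, had 35 to 102 counts per library and was not distinguished between CDK4/6i+ATRA and non-treated cells (log2 fold change 0.16, SE 0.21, edgeR quasi-likelihood, Benjamini-Hochberg adjusted p = 0.498). ATRA alone raised it by 0.66 (SE 0.19, edgeR quasi-likelihood, Benjamini-Hochberg adjusted p = 0.00181). The change under CDK4/6i was 0.58 (SE 0.19, edgeR quasi-likelihood, Benjamini-Hochberg adjusted p = 0.00765), but the libraries overlapped and the call was lost without CDK4/6i replicate 2 (0.46, adjusted p = 0.0625). The difference between CDK4/6i+ATRA and ATRA was -0.50 (SE 0.20, edgeR quasi-likelihood, Benjamini-Hochberg adjusted p = 0.0227), a call that was lost without ATRA replicate 1 (-0.36, adjusted p = 0.141) or CDK4/6i+ATRA replicate 2 (-0.40, adjusted p = 0.107). The interaction was -1.08 (SE 0.27, edgeR quasi-likelihood, Benjamini-Hochberg adjusted p = 0.00079). The machinery that sheds the ligands was read in all groups. ADAM17, the main protease for HBEGF, AREG and TGFA, rose from 42.5 ± 0.767 CPM (SD, n = 3) to 61.1 ± 1.24 with ATRA and 157 ± 4.84 with CDK4/6i+ATRA, and was 45.5 ± 1.22 with CDK4/6i. Its interaction was 1.27 on the log2 scale (SE 0.070, edgeR quasi-likelihood, Benjamini-Hochberg adjusted p = 4.04e-21). ADAM10, a related protease gene, rose with CDK4/6i+ATRA (log2 1.43, SE 0.039), and RHBDF2, which guides ADAM17 to the cell surface, 1.98-fold (log2 0.98, SE 0.13). RHBDF2 was also higher with ATRA alone (log2 0.75) and with CDK4/6i alone (0.55). Its difference between CDK4/6i+ATRA and ATRA was not past the threshold (0.23, SE 0.12, edgeR quasi-likelihood, Benjamini-Hochberg adjusted p = 0.0727). That call was gained without ATRA replicate 2 or CDK4/6i+ATRA replicate 3. Over the list of ERBB receptors, sheddases and inhibitors, 5 of 8 tested genes were higher and 1 was lower. The others among the 5 were FRMD8 and the inhibitor gene ERRFI1, and the lower gene was the tetraspanin gene CD9, with 8 to 16 counts in non-treated libraries and 0 to 1 with CDK4/6i+ATRA (all named after their values were seen). Of 7 other EGF-type ligands 2 passed the filter and both were higher with CDK4/6i+ATRA than in non-treated cells (EGF and NRG4, named after their values were seen). EGF had no count in non-treated libraries, 3 to 10 after ATRA, 0 to 2 under CDK4/6i and 20 to 21 under CDK4/6i+ATRA. NRG4 had 2 to 6 counts in non-treated libraries, 7 to 19 under CDK4/6i and 8 to 13 under CDK4/6i+ATRA, and was highest after ATRA alone with 26 to 32. Its interaction was -2.73 on the log2 scale (SE 0.65, edgeR quasi-likelihood, Benjamini-Hochberg adjusted p = 0.000404).

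CSF1R, the receptor of CSF1, had 10, 2 and 1 counts in non-treated cells, 65, 58 and 81 with ATRA, 3, 1 and 2 under CDK4/6i and 94, 132 and 109 under CDK4/6i+ATRA. The receptor and its ligand thus both had their highest levels with CDK4/6i+ATRA, where CSF1R was 2.47-fold higher than with ATRA (SE 0.20 on the log2 scale, edgeR quasi-likelihood, Benjamini-Hochberg adjusted p = 1.26e-07). Per length, CSF1R reached 2.35 RPKM there. Among the other receptors of blood growth factors, FLT3 fell from 12.4 ± 0.906 CPM in non-treated cells (SD, n = 3) to 2.37 ± 0.207 with ATRA, 3.57 ± 0.401 under CDK4/6i and 0.734 ± 0.245 under CDK4/6i+ATRA. EPOR, the erythropoietin receptor gene, fell with CDK4/6i+ATRA (log2 fold change -1.92, SE 0.17), and its interaction was -1.90 (SE 0.21, edgeR quasi-likelihood, Benjamini-Hochberg adjusted p = 9.44e-11). Of the 6 tested receptors CSF1R, CSF2RB and CSF3R were higher and KIT, FLT3 and EPOR lower, of which CSF2RB, CSF3R and KIT are named after their values were seen. Of the ligands, FLT3LG and KITLG passed the filter and were higher with CDK4/6i+ATRA than in non-treated cells (log2 0.81 and 1.14). Against ATRA alone, FLT3LG was lower (log2 -0.65, SE 0.22, edgeR quasi-likelihood, Benjamini-Hochberg adjusted p = 0.0096), and KITLG was not past the threshold (log2 0.44, SE 0.33, adjusted p = 0.234). KITLG, the ligand of KIT, held 14 to 18 counts in non-treated libraries, 1 to 3 under CDK4/6i and 16 to 29 under CDK4/6i+ATRA. CSF2, CSF3, IL3 and IL34 were listed at 0 in all libraries.

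Of the VEGF receptors, KDR held at most 4 counts in any library. FLT1 had 0 to 1 counts in non-treated libraries, 1 to 5 after ATRA, 0 to 3 under CDK4/6i and 5 to 27 under CDK4/6i+ATRA, a count ratio of 75.0 to non-treated cells (exact 95% counting interval 12.9 to 3020) and of 19.6 to CDK4/6i (7.22 to 74.8). NRP1, the co-receptor, had 60 to 93 counts in non-treated cells, 467 to 497 with ATRA, 117 to 169 under CDK4/6i and 2769 to 3215 under CDK4/6i+ATRA. NRP1 was 60.7-fold higher with CDK4/6i+ATRA than in non-treated cells and 9.35-fold higher than with ATRA (log2 fold change 3.22, SE 0.056, edgeR quasi-likelihood, Benjamini-Hochberg adjusted p = 8.85e-43). FLT4, a receptor of lymphatic vessels, had 160 to 178 counts in non-treated cells and 222 to 234 with ATRA. It fell to 21 to 28 counts under CDK4/6i and to 1 to 7 with CDK4/6i+ATRA. Of 13 tested hypoxia genes, 9 were higher and 3 lower with CDK4/6i+ATRA (median log2 0.67), and the 3 lower were BNIP3, PDK1 and SLC2A1 (-1.51, -1.11 and -1.44), named after their values were seen. EPAS1, the hypoxia-inducible factor 2-alpha gene, had no count in non-treated cells, 519 to 576 with ATRA and 698 to 766 with CDK4/6i+ATRA. The exact 95% counting interval of its ratio between CDK4/6i+ATRA and non-treated cells began at 864 and had no upper end. ANGPTL4, a secreted regulator of lipoprotein lipase, went from 94 to 141 counts with ATRA to 1473 to 1575 with CDK4/6i+ATRA, a 20.2-fold difference (log2 4.34, SE 0.092), and ADM, encoding the vasodilator adrenomedullin, was 6.73-fold higher than with ATRA (log2 2.75, SE 0.17).

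GFRAL, the receptor of GDF15, was listed at 0 in all libraries and RET held at most 7 counts. Among genes that process GDF15 or are known to regulate it, 3 of 10 tested were higher and 5 lower with CDK4/6i+ATRA than in non-treated cells (median log2 fold change -0.19). Against ATRA alone 6 were higher and 1 was lower (median 0.25), beside 36.9% and 32.8% of all tested genes, and the interaction was above 0 for 6 and below 0 for 1 (median 0.38), beside 24.5% and 27%. EGR1, an immediate early transcription factor, stood at 4.50 ± 0.406 CPM without treatment, at 106 ± 3.91 after ATRA, at 18.8 ± 1.37 after CDK4/6i and at 530.1 ± 7.77 after CDK4/6i+ATRA (SD, n = 3). FURIN, the convertase that can cut the GDF15 precursor, was 3.31-fold higher than in non-treated cells (log2 1.73, SE 0.046, edgeR quasi-likelihood, Benjamini-Hochberg adjusted p = 2.94e-35). CHAC1, a target of the ATF4 stress response, held 53 to 67 counts in non-treated cells and at most 1 with CDK4/6i+ATRA. ATF4, its targets TRIB3 and ASNS and the convertase gene PCSK6 were lower as well (log2 -0.58, -0.50, -2.81 and -0.65), whereas DDIT3 was higher (1.297). These 5 genes are named after their values were seen.

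Other secreted factors moved in both directions. TGFB1 rose 5.48-fold with CDK4/6i+ATRA (log2 fold change 2.45, SE 0.042) to 748 ± 37.2 CPM (SD, n = 3), and GDF11 fell to 1.73 ± 0.291 CPM from 14.3 ± 0.683 (log2 -3.05, SE 0.17, edgeR quasi-likelihood, Benjamini-Hochberg adjusted p = 2.97e-22). Of 8 further tested growth factors, 4 were higher (GRN, NAMPT, IGFBP6 and PDGFA) and 4 lower (IGFBP7, CCN1, HGF and BDNF), of which GRN, IGFBP7 and CCN1 were named by rule and the other 5 after their values were seen. GRN, encoding progranulin, rose 7.58-fold against non-treated cells (log2 2.92), but its difference from ATRA alone was 0.23 on the log2 scale and -0.076 with scaling by library size alone. IGFBP7 and CCN1, matrix-associated factors often counted in the senescence secretome, fell by 3.96 and 2.76 on the log2 scale with CDK4/6i+ATRA. CCN1 was already lower with CDK4/6i alone (-2.22), and CDK4/6i+ATRA was not distinguished from that (-0.54, SE 0.56). IGFBP7 was lower with ATRA (-1.65) but higher with CDK4/6i (0.47, SE 0.18). The latter call was lost with DESeq2 and without non-treated replicate 3 or CDK4/6i replicate 1. Among regulators of AU-rich messenger RNAs, a class to which many cytokine transcripts belong, 3 of 9 tested genes were higher (ZC3H12A, RC3H1 and RC3H2, the latter pair named after their values were seen) and 6 lower. HNRNPD and KHSRP, which promote decay of such messages, fell by 1.63 (SE 0.040) and 1.49 (SE 0.037), and the endonuclease gene ZC3H12A, whose known targets include IL6, rose by 2.23 (SE 0.11).

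**Figure D5:**
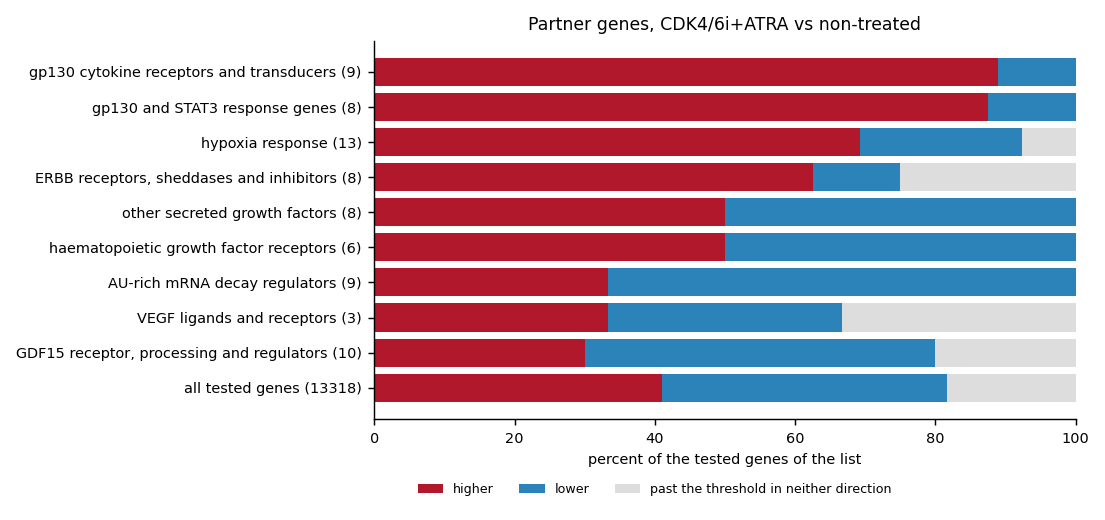
Share of the tested genes of each partner list (number in brackets) that were higher or lower under CDK4/6i+ATRA or past the threshold in neither direction, with non-treated cells as the reference, for the 9 lists with at least 3 tested genes and for all 13318 tested genes. The shares of higher genes ran from 8 of 9 for gp130 receptors and transducers to 3 of 10 for GDF15 processing and regulators, beside 41% of all tested genes.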

How the data were processed

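Per the study's methods and the labels, the authors trimmed the reads with Trimmomatic 0.33, aligned them to hg38 with STAR 2.7.11a with genes from NCBI RefSeq. The authors deposited raw counts (whole numbers, no normalization) of 59251 genes. The methods name RSEM, whereas the table has the layout of featureCounts; whether reads were counted by strand is not given in the sources used here. Groups came from the sample labels, and the 10 genes and all lists were chosen with earlier results of these data known. Counts were analysed in edgeR 4.0.16 (R 4.3.3) with filterByExpr (13318 genes kept), TMM and a quasi-likelihood F test on the means of the 4 groups (8 residual degrees of freedom), with Benjamini-Hochberg adjustment and a threshold of 0.05. The test was checked on simulated data. Genes named are the 10, fixed receptors, up to 3 called genes per list averaging at least 1 CPM over the 12 libraries with the largest change (CDK4/6i+ATRA against non-treated), the 5 most similar to LIF and GDF15 and the genes next to the 2 pairs. Any other gene is named after its values were seen, as the text says. RPKM used the deposited exon lengths. The alternatives were other normalizations and filters, DESeq2 1.42.0, a replicate block, the compared groups alone and each library left out. Library totals of 12230923 to 18679544 counts put 3 counts at 0.155 to 0.275 CPM. Libraries of a group differed by more than sampling noise (chi-square per degree of freedom 1.81 to 6.22).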

Additional observations from a re-analysis of the deposited data

How the results depend on the processing

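Where each library had to hold 10 counts or more, only OSM, HBEGF, TGFA and VEGFA of the growth factor genes remained to be tested, and the number past the threshold was 4 for ATRA, 4 for CDK4/6i+ATRA and 4 for CDK4/6i+ATRA against CDK4/6i, 3 against ATRA and 3 for the interaction. Leaving out 1 library at a time gave 8 to 8 growth factor genes for ATRA, 2 to 4 for CDK4/6i (2 without the second non-treated library, in place of 4), 7 to 7 for CDK4/6i+ATRA, 6 to 8 against CDK4/6i, 7 to 8 against ATRA and 4 to 6 for the interaction. Single libraries decided whether OSM was past the threshold for CDK4/6i (not without non-treated replicate 1, non-treated replicate 2 or CDK4/6i replicate 2, log2 0.37 to 0.61 over all alternatives), TGFA likewise (not with DESeq2 or without non-treated replicate 2 or CDK4/6i replicate 3), and AREG for CDK4/6i+ATRA against CDK4/6i (not without CDK4/6i+ATRA replicate 3). The interaction of TGFA was not past it without ATRA replicate 2 or CDK4/6i+ATRA replicate 2. Calls were gained for VEGFA against CDK4/6i (DESeq2 size factors, 10 counts in every library, the compared groups alone, and without CDK4/6i replicate 2, CDK4/6i replicate 3 or CDK4/6i+ATRA replicate 1), for the interaction of AREG (without non-treated replicate 1 or CDK4/6i+ATRA replicate 3), for TGFA against ATRA (library size alone, and without ATRA replicate 1 or CDK4/6i+ATRA replicate 3) and for the interaction of GDF15 (DESeq2). The cause was not tested. All other counts of genes, partner genes and growth factor genes stayed within 1.5 times, and no growth factor gene past the threshold changed direction under any alternative. Scaling by library size alone turned the log2 difference against ATRA of JAK2 to -0.016 and of GRN to -0.076, the interaction of MTMR3 to -0.12 (0.20 with TMM), and RCHY1 to -0.14 against non-treated cells and -0.11 against CDK4/6i. The replicate numbers did not pair the libraries (correlations of -0.07 to 0.03 over 18 same-numbered pairs), and with a replicate block 8, 4, 7, 7, 7 and 5 growth factor genes were past the threshold in the 6 comparisons, as without it, and 8916, 7393, 10824, 10416, 9213 and 6775 of all genes. LIF and GDF15 without ATRA, AREG, IL6 and EREG are limited by depth, with values near or below 3 counts for all but AREG.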
